A study of Capra hircus with 6 samples.

Results

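LAPTM4A and GNPTAB are 2 genes of the lysosomal system, each measured by 1 probe (Bt00006089 for LAPTM4A and Bt00001803 for GNPTAB) among the 8379 probes of a bovine oligonucleotide array. They were selected on the measured ratios themselves, since both were lower in Low than in High goats on all 6 arrays, so the ratios between Low and High that follow describe them and carry no test. Of the 5717 probes with a value on all 6 arrays, 80 were lower in Low on every one, or 1.4%, and 70 were higher on every one, or 1.22%. The study hybridised RNA of the lactating mammary gland of goats (Capra hircus) with the Low genotype of CSN1S1, which encodes alpha-S1 casein, against RNA of goats with the High genotype. All goats ate a control diet without restriction. There were 3 Low and 3 High goats, combined into 3 pairs of 1 Low and 1 High goat, and each pair was hybridised on 2 arrays with the dyes Cy5 and Cy3 exchanged. Since both arrays of a pair carry the same animals, the pair is the replicate (n = 3). The labels give the genotypes only as Low and High, with no allele named, and give no age.

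Lysosomes break down material brought in by endocytosis and autophagy. Most of their soluble enzymes are marked in the Golgi with mannose 6-phosphate, bound there by mannose 6-phosphate receptors, packed by GGA and AP-1 adaptors and released in endosomes. GNPTAB encodes the alpha and beta subunits of the phosphotransferase that begins this mark, and loss of its activity in humans causes mucolipidosis, in which lysosomal enzymes are secreted instead of retained. LAPTM4A is a small protein that spans the membrane of late endosomes and lysosomes several times, and in human cells it takes part in glycosphingolipid synthesis. In the lactating gland, lysosomes serve secretory epithelial cells, macrophages and other cells, and whole-gland RNA mixes them all. In such bulk RNA, fewer cells of a type and less of an RNA per cell cannot be told apart.

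The genotype was checked on CSN1S1 itself. Its Low over High log2 ratio was -2.43 ± 0.22 (SD, n = 3 pairs). This is 5.37 times lower than in High, and it lay between -2.73 and -1.92 on single arrays, with a limma adjusted p of 5.13e-04. On arrays with Low in Cy5, High spots of CSN1S1 were marked saturated in pair 2 (first duplicate) and pair 3 (both duplicates). They were kept, and a saturated spot can understate High and with it the size of the ratio. Of the 6378 probes that exceeded background, 7 were lower in Low at an adjusted p under 0.05, or 0.11%, and 0 were higher (0%), while 342 had an unadjusted limma p under 0.05, or 5.36%. Between 74.1% and 82.2% of the probe spots on an array were free of manual and empty flags. Across all kept probes the ratios of different pairs were only weakly correlated, with r of 0.152, 0.271 and 0.0352 for the 3 combinations of pairs, a description across probes that are not independent. All array values are scanner brightness, and the number of arrays limits their precision.

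LAPTM4A had clearly unequal brightness in the 2 genotypes before any normalization. Its signal after subtraction of the local background (scanner units, mean of the 2 duplicate spots) was 174, 66.3, 86.8, 32.6, 137 and 183 in Low goats, against 1080, 267, 280, 222, 559 and 728 in High goats. These values run from pair 1 to pair 3, each with the array that has Low in Cy5 before the one that has Low in Cy3. The High channel was brighter on every array, by 3.23 to 6.81 times. Over single spots, the 12 Low readings lay between 28.8 and 189 with a median of 111, and the 12 High readings between 218 and 1080 with a median of 423, so the brightest Low spot was dimmer than the dimmest High spot.

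The Low signal of LAPTM4A stood close to the background. It exceeded the mean of the local background by 2 SD in at least 1 duplicate spot on 4 of 6 arrays in Low, against 6 of 6 in High. The arrays without it in Low were those of pairs 1 and 2 with Low in Cy3. The High channel was thus measured throughout, while on those 2 arrays the Low channel sets only an upper bound on the level. No spot of LAPTM4A or GNPTAB was saturated.

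**Figure D1:**
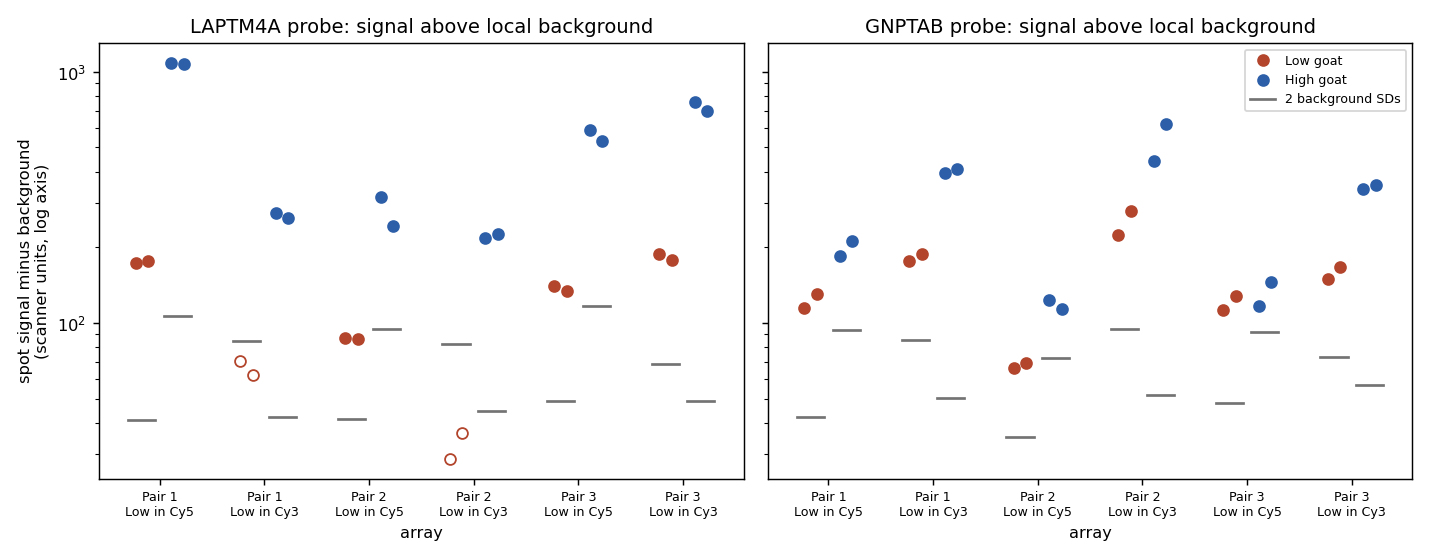
Background-subtracted signal of LAPTM4A and GNPTAB at each spot (scanner units, log axis), with Low on the left of High for every array, filled symbols for spots above background, open symbols for those not, and grey bars at 2 SD of the local background. The 12 Low spots of LAPTM4A reach at most 189 while the 12 High spots start at 218, whereas the Low spots of GNPTAB (66.0 to 279) overlap its High spots (113 to 621).

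After background correction and loess normalization, the Low over High log2 ratios of LAPTM4A were -2.30 (Low in Cy5) and -1.06 (Low in Cy3) for pair 1. For pair 2 they were -1.02 and -1.45, and for pair 3 they were -1.93 and -1.44, in the same dye order. The pair means were -1.68, -1.24 and -1.68. Their mean was -1.53 ± 0.26 (SD, n = 3 pairs), which puts the Low signal at 34.6% of High, or 2.89 times lower, with the 2 arrays not above background in Low taken at their measured signal. On the other 4 arrays alone, a choice made after seeing the data, Low was 3.18 times lower. In pairs 1 and 2 that value rests on Low in Cy5 alone, so a dye effect does not cancel there. The mean over all 6 was the second lowest ratio of all kept probes, after CSN1S1. Among the 80 probes that were lower on all 6 arrays it stood at the same place, followed by the unnamed probe Bt00005040 at -1.04 and by LRPPRC, a mitochondrial RNA-binding protein, at -0.90. LAPTM4A was of middling brightness (percentile 51.1 of kept probes by mean intensity), and the spread between its pairs was wide (percentile 96.7 by SD).

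GNPTAB differed less between the genotypes and was above background everywhere. Its background-subtracted signal was 123, 182, 67.7, 251, 120 and 158 in Low goats, against 198, 403, 118, 532, 132 and 348 in High goats, in the same order of arrays. High was brighter on every array, by 1.09 to 2.21 times, and the channels lay closest in pair 3 when Low was in Cy5. Over single spots, the Low readings had a median of 140 and the High readings a median of 277, and their ranges overlapped. In pair 2 with Low in Cy3, its first duplicate spot carried a manual flag. That spot counts in the signals above and was left out of the ratio, which 1 spot gives there.

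The normalized Low over High log2 ratios of GNPTAB were -0.65 and -0.79 for pair 1, -0.35 and -0.82 for pair 2, and -0.41 and -0.66 for pair 3. The pair means of -0.72, -0.58 and -0.53 lay close together. Their mean was -0.61 ± 0.10 (SD, n = 3 pairs), so that the Low signal was 65.4% of High, or 1.53 times lower. It was the ninth lowest ratio of all kept probes and the 6th of the 80 probes lower on all 6 arrays, between CYB5R3, a cytochrome reductase, at -0.66 and POLR1D, a subunit of RNA polymerases, at -0.59. Its mean intensity was at percentile 46.4 of kept probes and the SD between its pairs at percentile 62.9. The array nearest to equality stood at -0.35 for GNPTAB and at -1.02 for LAPTM4A.

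The ratios of a pair's 2 arrays differed with the dye order, and the dye's part in this was not tested. LAPTM4A averaged -1.75 over the arrays with Low in Cy5 and -1.31 over those with Low in Cy3, and the array with Low in Cy5 was the lower one in 2 of 3 pairs. GNPTAB went the other way, with -0.47 for Low in Cy5 and -0.76 for Low in Cy3, and the array with Low in Cy5 was the lower one in 0 of 3 pairs. The mean deviation of a dye order from the mean of both was 0.22 for LAPTM4A and 0.14 for GNPTAB on the log2 scale, against a median of 0.10 over all kept probes. Each pair holds both dye orders, so a constant dye effect cancels in the pair means of a probe with a ratio on both arrays, as here. The spot quantification of the arrays fell on 2 days. Pair 1 was quantified on the first day and pair 2 on the second. Pair 3 had Low in Cy3 on the first and Low in Cy5 on the second. Day, goat pair and dye order thus cannot be told apart. The ratio on either day alone was within its pair SD for LAPTM4A and was -0.50 on the second day for GNPTAB.

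**Figure D2:**
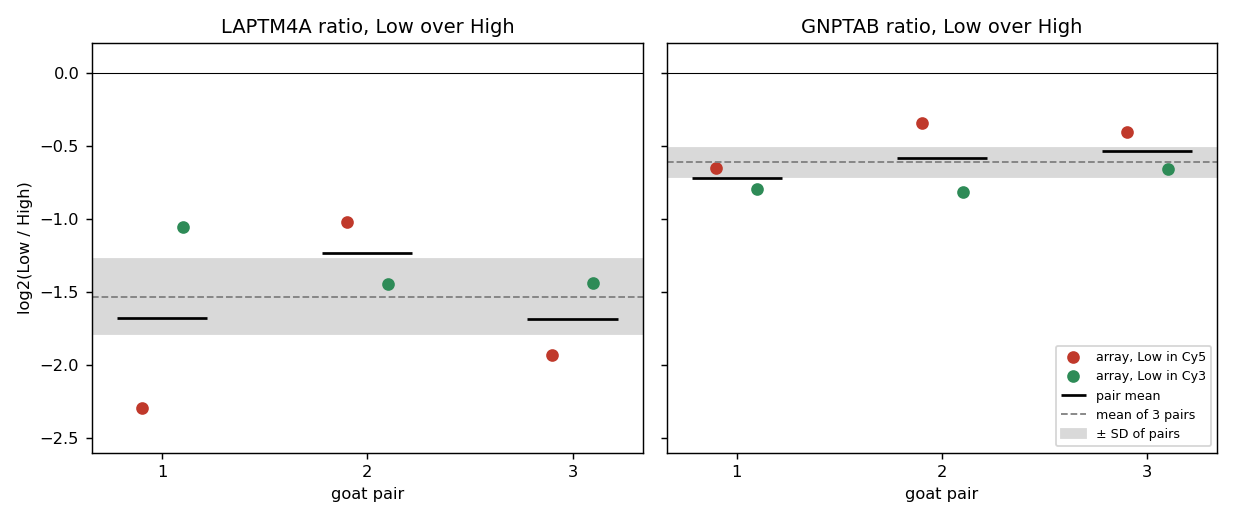
Low over High log2 ratio of LAPTM4A and GNPTAB on each array (points, coloured by dye order), by goat pair, with pair means as black lines and the mean of 3 pairs ± SD as a dashed line and grey band. Every point lies below 0, between -2.30 and -1.02 for LAPTM4A and between -0.82 and -0.35 for GNPTAB.

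The authors' deposited log2 ratios, turned to Low over High, gave the same picture for both genes. LAPTM4A had deposited ratios of -2.33 and -1.17 for pair 1, -1.21 and -1.22 for pair 2, and -1.86 and -1.43 for pair 3, with a mean of -1.54 ± 0.28 (SD, n = 3 pairs). GNPTAB had deposited ratios of -0.67 and -0.85, -0.49 and -0.67, and -0.29 and -0.67 in the same order, with a mean of -0.61 ± 0.14 (SD, n = 3 pairs). The deposited ratios are centred near 0 on every array, and they come from the same scans, so they are a second processing and not a second measurement.

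Levels were then read for each goat, as the log2 brightness of its own channel after normalization within and between arrays, averaged over its 2 arrays. LAPTM4A stood at 7.64, 7.27 and 7.61 in the Low goats of pairs 1 to 3, against 9.32, 8.51 and 9.29 in the High goats. The highest Low goat lay 0.87 below the lowest High goat. GNPTAB stood at 7.88, 8.08 and 7.57 in the Low goats, against 8.60, 8.67 and 8.10 in the High goats. Here the highest Low goat lay only 0.02 below the lowest High goat, and the genotypes separate mainly within pairs. The level means were 7.51 ± 0.20 in Low and 9.04 ± 0.46 in High for LAPTM4A, and 7.84 ± 0.26 in Low and 8.46 ± 0.31 in High for GNPTAB (SD, n = 3 goats each).

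The order of the goats was the same within both genotypes. For LAPTM4A it ran from pair 1 through pair 3 to pair 2, the top 2 differing by less than the spread between arrays, and for GNPTAB from pair 2 through pair 1 to pair 3. Both goats of a pair were read on the same 2 arrays, so an animal's level and the brightness of its arrays cannot be told apart. Between its own 2 arrays, a goat's level differed by up to 1.79 for LAPTM4A (High goat of pair 1) and by up to 1.98 for GNPTAB (High goat of pair 2). Over the 6 goats the levels of the 2 genes had r = 0.62 and rho = 0.66, with genotype and arrays shared between them. Over the 6 array ratios, in which the array's brightness is divided out, r was -0.05 and rho was 0.09.

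**Figure D3:**
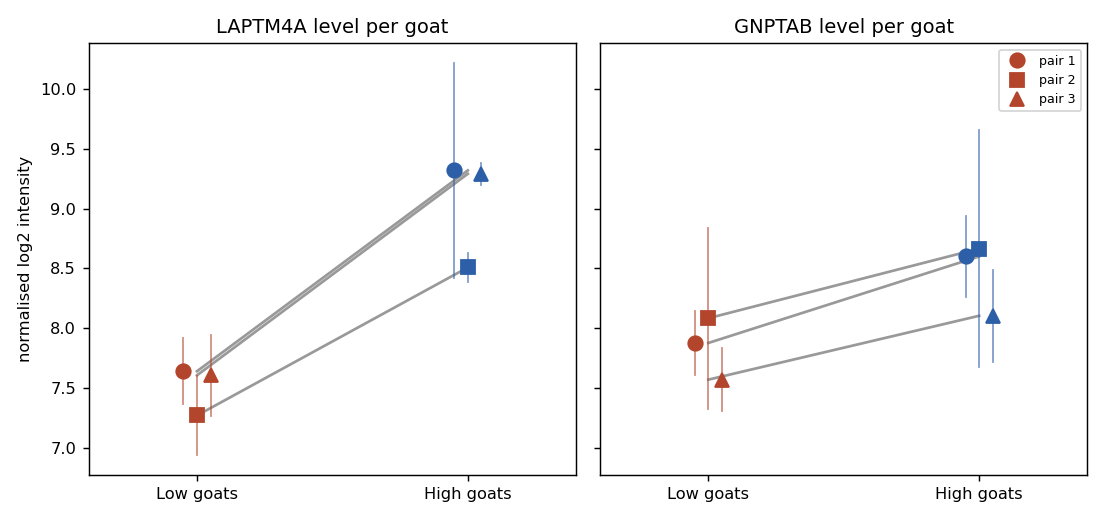
Log2 level of LAPTM4A and GNPTAB in each goat, with the 3 Low goats on the left and the 3 High goats on the right, symbols for the mean of a goat's 2 arrays, thin vertical lines for the range of those 2 and grey lines joining the goats of a pair. For LAPTM4A the genotypes are 0.87 apart at their nearest goats, and for GNPTAB 0.02.

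Of the 3 kept relatives and ligases of LAPTM4A, 0 passed limma at an adjusted p under 0.05 (0.11% of all probes) and 1, LAPTM5, had an unadjusted p under 0.05 (5.36% of all probes). So few genes read against these shares give no result about the family. LAPTM5, the family member of blood cells, had ratios of 0.06, -0.51 and -0.81 in the 3 pairs, with a mean of -0.42 ± 0.44 (SD, n = 3 pairs), and did not pass (limma adjusted p = 0.885). It was close to background, in Low on 4 of 6 arrays and in High on 3 of 6 above it, and lower on 3 of the 4 arrays that gave a ratio. Those 3 had Low in Cy5 (-0.32, -0.51 and -0.81), and the 1 with Low in Cy3, in pair 1, stood at 0.43. Pairs 2 and 3 thus rest on Low in Cy5 alone, so a dye effect does not cancel there. The ratio of LAPTM5 also depended on the processing, at -1.10 with the background subtracted, -0.03 in the deposited values and 0.04, the other direction, with no spot removed for a flag. Its level was 7.25, 7.06 and 6.88 in the Low goats and 7.19, 7.58 and 7.69 in the High goats, so the genotypes overlapped. The ubiquitin ligases ITCH, at -0.02 ± 0.06, and WWP2, at 0.01 ± 0.07, belong to the NEDD4 type that binds LAPTM5 in human cells, and both were above background on all 6 arrays in both genotypes. The pair means of ITCH average 0.41 to 0.58 with Low in Cy5 and -0.61 to -0.40 with Low in Cy3. Of the 8 genes listed for this family and its ligases, 5 were on the array by name and 4 were kept, LAPTM4A included.

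For the other genes of the mannose 6-phosphate pathway, the ratios ran from -0.03 to 0.11. Of 20 listed genes, 14 were on the array and 10 were kept, GNPTAB included. Of the 9 without GNPTAB, 0 passed limma at an adjusted p under 0.05 and 0 at an unadjusted p under 0.05, against 0.11% and 5.36% of all probes. Of these 9, 3 lay below 0 and 6 above, and their median log2 ratio was 0.01. GNPTG, which encodes the gamma subunit of the same enzyme, had a ratio of 0.11 ± 0.09 (SD, n = 3 pairs), but exceeded background on 2 of 6 arrays in Low and 4 of 6 in High. In pairs 1 and 3 only the array with Low in Cy3 gave a ratio of GNPTG, so a dye effect does not cancel there. Its ratio was 0.0009 with no spot removed for a flag and -0.0095 with no background correction. The receptors stood at 0.01 ± 0.16 for M6PR, the smaller and cation-dependent one, and at -0.03 ± 0.05 for IGF2R, the larger one, each above background on 6 of 6 arrays in both genotypes.

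The carriers and processing enzymes of the pathway were spread just as narrowly. The adaptor GGA2, which loads the receptors in the Golgi, had a ratio of -0.0037 ± 0.13. Of the AP-1 coat, AP1B1 had 0.01 ± 0.12, AP1G1 had -0.01 ± 0.22 and AP1S1 had 0.09 ± 0.03 (SD, n = 3 pairs), the last being higher in Low on 6 of 6 arrays without passing (limma adjusted p = 0.885). MBTPS1, the protease that cleaves the GNPTAB product into its alpha and beta subunits, had 0.03 ± 0.09, and FURIN, another Golgi protease, had 0.005 ± 0.12. The probes of SORT1, GGA1, GGA3 and AP1M2 did not exceed background often enough to be kept.

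The wider lysosome and endosome lists were read in the same way. Over 8 lists, and without LAPTM4A and GNPTAB, 132 genes were kept, of which 0 passed limma at an adjusted p under 0.05 and 5 had an unadjusted p under 0.05 (1 lower and 4 higher in Low), or 3.79%. The shares over all probes were 0.11% and 5.36%, so the count of 0 is near the background. On all 6 arrays, 1 of the 132 was lower in Low and 3 were higher, against 1.4% and 1.22% of all probes. Of the 132, 65 lay below 0 and 67 above, that is 49.2% below 0 against 49.1% of all kept probes. Their median log2 ratio was 0.0010, against 0.0014 for all kept probes, and their range ran from -0.42 (LAPTM5) to 0.28 (ARSK). ARSK, a sulfatase, was above background on 3 of 6 arrays in Low and 0 of 6 in High, with pair ratios of -0.39, 1.62 and -0.39. The 85 list genes above background on 6 of 6 arrays in both genotypes ran from -0.10 to 0.16. In 0 of the 132 was the ratio as low as that of GNPTAB. GNPTAB was selected for a low ratio and ranked 9 from the lowest of the 6378 kept probes. Against so small a share, this count is no result about the lists.

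Among the lysosomal membrane proteins, which are the nearest to LAPTM4A in place, 14 genes were kept, 7 below and 7 above 0, and the median was 0.0009. The calcium channel MCOLN1 had 0.01 ± 0.03, the lipid transporter SPNS1 -0.02 ± 0.02 and the cobalamin exporter LMBRD1 0.11 ± 0.10. For the synthesis of ceramide and glycosphingolipids, 15 genes were kept, 11 below and 4 above 0, with a median of -0.01. SPTLC1, a subunit of the first enzyme of ceramide synthesis, had -0.14 ± 0.19, the regulator ORMDL2 had -0.01 ± 0.04 and the ceramide synthase CERS5 had 0.04 ± 0.04 (SD, n = 3 pairs).

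In the list of lysosomal enzymes and their activators, many of which are known to carry the mark GNPTAB begins, 29 were kept, 13 below and 16 above 0, with a median of 0.02. The protective protein CTSA stood at -0.02 ± 0.11 and HYAL3, of the hyaluronidase family, at -0.03 ± 0.04. NAGLU and IDUA, enzymes of heparan sulfate breakdown, stood at 0.12 ± 0.04 and 0.13 ± 0.08 and were among the 5 with an unadjusted limma p under 0.05, neither passing after adjustment (0.885 for both). Both were above background on 3 or 4 of the 6 arrays in each genotype. NAGLU and PLBD1, a phospholipase-like protein at 0.08 ± 0.07, were higher in Low on 6 of 6 arrays, as was AP1S1 above.

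The proton pump had 11 genes, 4 below and 7 above 0 and a median of 0.02, with the subunits ATP6V1E1 at 0.05 ± 0.09, ATP6V0E2 at 0.02 ± 0.01 and ATP6V1A at 0.07 ± 0.17. Sorting and tethering at the late endosome had 27 genes, 13 below and 14 above 0 and a median of 0.0009. The tethering subunits VPS33B and VPS11 stood at -0.01 ± 0.07 and -0.01 ± 0.10, and SNF8, of the ESCRT machinery that sorts cargo into inner vesicles, at 0.16 ± 0.15. Some list genes changed sign with the dye order, M6PR, IGF2R and CTSA among them, and the SD between pairs does not hold this difference. HYAL3 ran from -0.42 to -0.27 with Low in Cy5 and from 0.28 to 0.31 with Low in Cy3. CERS5 ran from -0.32 to -0.18 and from 0.19 to 0.46 in the same dye order. SNF8 ran from -0.31 to -0.19 with Low in Cy5 and from 0.27 to 0.80 with Low in Cy3. Another ESCRT gene, UBAP1, was the 1 list gene lower in Low on 6 of 6 arrays, at -0.09 ± 0.02 (SD, n = 3 pairs), without passing (limma adjusted p = 0.885). The regulators and autophagy genes numbered 24, 12 on each side of 0 with a median of 0.0020. Among them the transcription factor TFE3 stood at 0.04 ± 0.11, the autophagosome protein MAP1LC3A at -0.07 ± 0.13 and the initiation factor ATG13 at 0.18 ± 0.13.

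**Figure D4:**
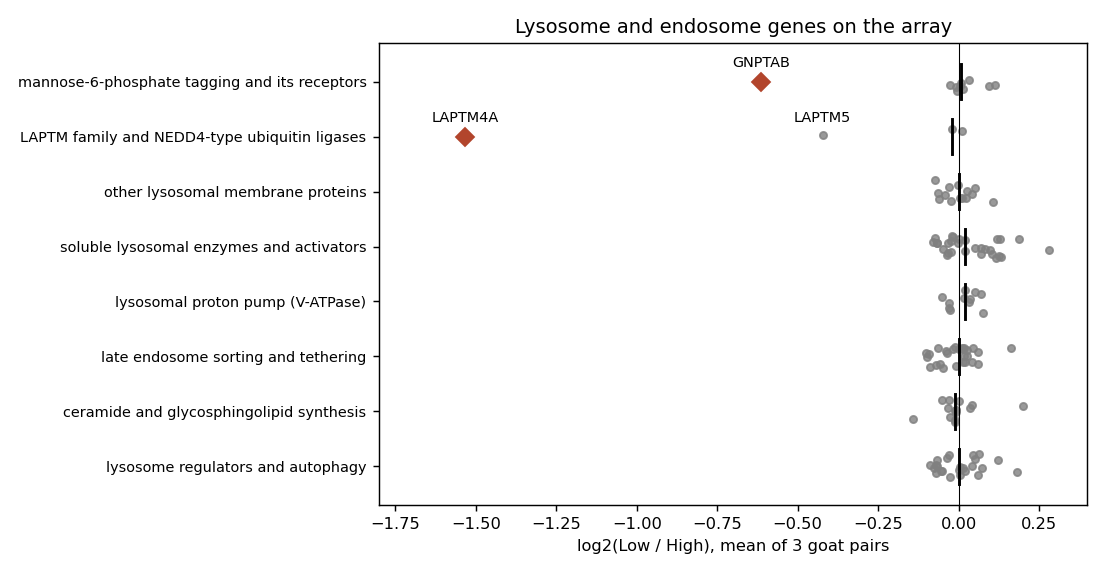
Low over High log2 ratio (mean of 3 pairs) of every kept gene in the 8 lysosome and endosome lists, 1 row per list, with LAPTM4A and GNPTAB marked and the median of the other genes of each list as a line. The 132 other genes lie between -0.42 and 0.28, while LAPTM4A stands at -1.53 and GNPTAB at -0.61.

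Markers of the cell types in the gland were read beside these values. Of the 14 macrophage and granulocyte genes other than LAPTM5, 9 exceeded background on all 6 arrays in both genotypes, and their summed linear level was 10747 to 14653 in Low goats and 10953 to 14528 in High goats, with a median log2 ratio of 0.02. Of the 12 secretory and luminal genes, 1 was lower in Low by limma at an adjusted p under 0.05, CSN1S1 itself, against 0.11% of all probes. At an unadjusted p under 0.05 there were 2 lower (CSN1S1 and PAEP) and 1 higher (KRT18), while CSN1S2, another casein gene, stood at -0.07 ± 0.17. Both milk protein genes CSN1S2 and PAEP, which define the lactating gland, were above background on 6 of 6 arrays in both genotypes. The whey protein gene PAEP stood at -0.26 ± 0.11 (SD, n = 3 pairs) and was lower in Low on 4 of 6 arrays. PAEP ran from -0.75 to -0.50 with Low in Cy5, and stood at 0.05, -0.07 and 0.36 with Low in Cy3. The summed linear level of the 11 luminal genes other than CSN1S1 was 101346 to 130348 in Low goats and 117955 to 120287 in High goats, so the Low goats lay on both sides of the High goats. Of the 6 lymphocyte genes and the 9 genes of stroma, vessels, fat and muscle, 0 passed limma, and 1 and 2 of them had an unadjusted p under 0.05, against 5.36% of all probes. The lymphocyte gene was CD79A, at -0.19 ± 0.08. The others were LEP, at -0.29 ± 0.21, and KRT17, at 0.23 ± 0.09 (SD, n = 3 pairs). A dimmer probe of LEP stood at 0.01 ± 0.04. The part of cell composition in the ratios of LAPTM4A and GNPTAB was not tested.

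The probes most like each gene were sought by Pearson's r of the levels over the 6 goats, among 5252 probes. This r is a description, since genotype and arrays are shared by all points. LAPTM4A and GNPTAB were selected for lower values in Low, so probes found by likeness to them are drawn towards the same separation. For LAPTM4A they were RASA2, which switches off Ras, with r = 0.975, HSD11B1, an enzyme that regenerates active glucocorticoid, with 0.947, DDO, an oxidase of D-aspartate, with 0.946, GABRA5, a neurotransmitter receptor subunit, with 0.926, and TBL1XR1, of a transcriptional repressor complex, with 0.924. HSD11B1 had a ratio of -0.52 ± 0.17 (SD, n = 3 pairs), lower on 6 of 6 arrays and above background on all of them in both genotypes. Its level was 7.43, 7.59 and 7.63 in the Low goats, against 8.12, 7.95 and 8.13 in the High goats, with no overlap, which the search itself favours. The other four had ratios between -0.28 and -0.13 and were near background. RASA2 exceeded it on 1 of 6 arrays in Low and 3 of 6 in High, DDO on 2 and 5, GABRA5 on 5 and 3 and TBL1XR1 on 3 and 5, so their places in this order rest on levels close to the floor. GNPTAB came 107th in likeness.

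For GNPTAB the most alike were UNC119, a carrier of lipid-modified proteins, with r = 0.958, VAC14, a scaffold of the kinase that makes a phosphoinositide of endosomes and lysosomes, with 0.958, TLK1, a chromatin kinase, with 0.948, AZI2, an adaptor of innate immune signalling, with 0.937, and ZMYND15, with 0.930. UNC119 had a ratio of -0.39 ± 0.08 and VAC14 of -0.35 ± 0.10 (SD, n = 3 pairs), each lower in Low on 6 of 6 arrays and above background on all. VAC14 was in none of the lysosome and endosome lists read above, so the ranges given for those lists do not cover it. The level of VAC14 was 8.18, 8.24 and 7.96 in the Low goats, against 8.62, 8.48 and 8.34 in the High goats. TLK1 exceeded background on 2 of 6 arrays in Low and 4 of 6 in High, and AZI2 on 4 and 4. LAPTM4A came 280th in likeness to GNPTAB.

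Probes printed beside the 2 genes on the array lay near equality, and both genes were printed in other sub-grids than CSN1S1. Around LAPTM4A, the kept neighbours FNDC3B, Bt00005401, FAM104A and NIPSNAP2 had log2 ratios of -0.15 ± 0.22, -0.10 ± 0.17, 0.01 ± 0.12 and -0.01 ± 0.08. The probes next in number stood at -0.05 ± 0.10 for DDT and -0.02 ± 0.05 for BHMT. Around GNPTAB, the neighbours EIF3H, PIP4P1, MAP2K1, RPL38 and GTF2I stood between -0.07 and 0.11. The probes next to it in number stood at 0.04 ± 0.05 for EGR1 and -0.03 ± 0.10 for SRSF1 (SD, n = 3 pairs). Of these neighbours, FNDC3B was the lowest, and it was lower on 4 of 6 arrays.

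The 2 genes lie on different goat chromosomes from each other and from CSN1S1, LAPTM4A on chromosome 11, GNPTAB on chromosome 5 and CSN1S1 on chromosome 6 in the RefSeq gene table. Of the 5 genes on each side in that order, few were measured. Near LAPTM4A, the small GTPase gene RHOB had 0.03 ± 0.04 and the proteoglycan gene SDC1 had 0.04 ± 0.03. Near GNPTAB, the muscle protein gene MYBPC1 had -0.04 ± 0.08 and the DNA repair gene PARPBP had -0.06 ± 0.05 (SD, n = 3 pairs). CHPT1 and DRAM1, beside GNPTAB, were on the array but not kept.

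The size of both ratios moved with the processing. Over 20 alternatives for each gene, LAPTM4A lay between -2.18 and -1.31 and GNPTAB between -0.91 and -0.47. Of these, 8 use subsets of the arrays on which the genes were selected, so their sign was fixed by the selection, and 12 process the same 6 arrays in another way. The largest size for both came from plain subtraction of the background, which gave 4.55 times lower for LAPTM4A and 1.87 times lower for GNPTAB. The normexp offset of 50 that was used otherwise draws the ratios of dim probes towards 0.

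**Figure D5:**
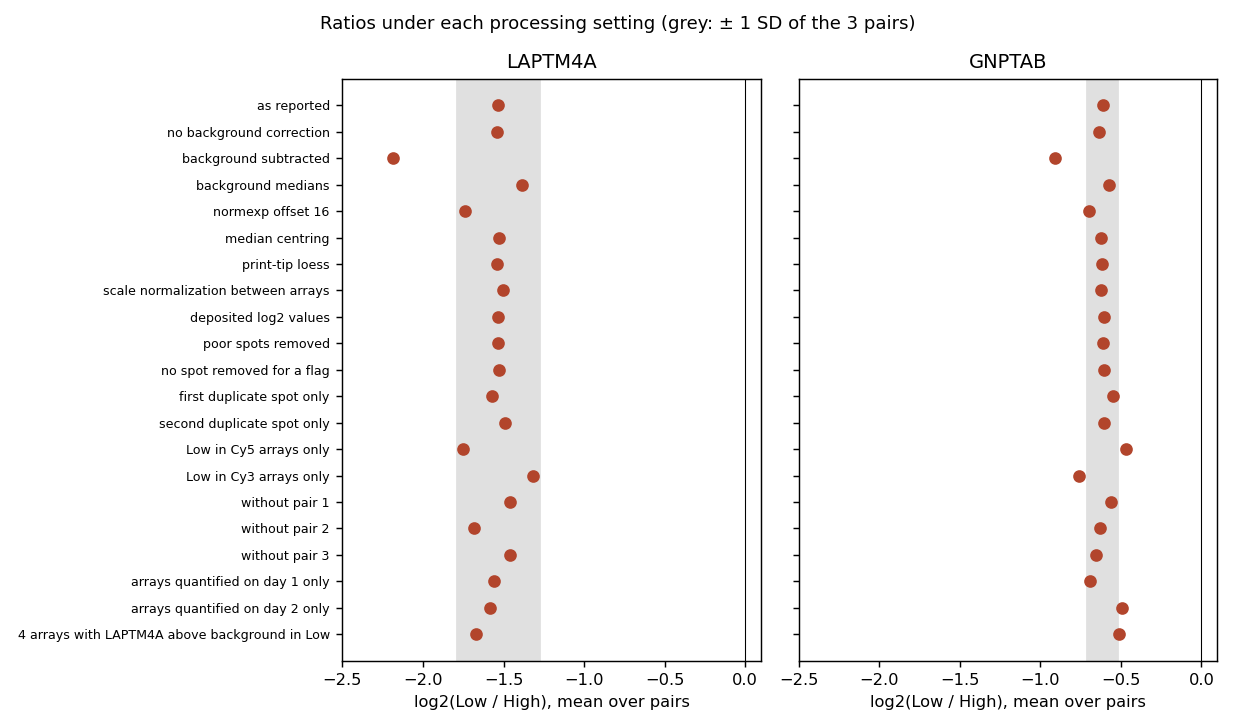
Low over High log2 ratio of LAPTM4A and GNPTAB under the processing used in the text and under each alternative, 1 row per setting, with ± 1 SD of the 3 pairs under the processing used in the text as a grey band. The values run from -2.18 to -1.31 for LAPTM4A and from -0.91 to -0.47 for GNPTAB, and the largest sizes are those with the background subtracted. The sign in the 8 settings that use part of the arrays follows from how the genes were selected.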

How the data were processed

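The members and gene lists were chosen with earlier results of these data known. Per the labels' protocols, total RNA took up Cy5 or Cy3 in direct labelling, and ImaGene gave each spot's mean; the deposited intensity columns hold this spot brightness, the deposited background signal columns the local background with its SD, and the deposited flag columns a quality code. The authors' deposited log2 ratios were used as an alternative, since their normalization is not given in the sources used here. The dyes in the file headers matched the labels in 12 of 12 scans.

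With limma 3.58.1 in R 4.3.3, background was corrected by normexp (offset 50) and arrays were normalized by loess. Empty and blank spots, and spots flagged as manual or empty, had weight 0. Spots flagged only as poor were kept, as were saturated spots. Ratios were turned to Low over High, averaged over 2 duplicate spots and then over the 2 arrays of a pair. limma's lmFit and eBayes ran over 6378 probes above background (background mean plus 2 SD in either spot, in the same genotype, on at least 1 array of every pair), with Benjamini-Hochberg adjustment. Goat levels used loess and quantile scaling of average intensity. The code was tested on simulated data.

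Probe names come from an old cattle-based annotation: 6840 probes have 1 symbol, 93 several and 1446 none. Genes named in the text are LAPTM4A, GNPTAB and CSN1S1 and the measured genes of the mannose 6-phosphate and LAPTM lists. Also named are the 5 probes most like each gene, and neighbours on the array and in the genome. Each other lysosome and endosome list and the luminal markers are named by the 2 brightest genes, the lowest p and any call. Of the other marker lists, the gene with the lowest p is named. For a gene with several probes, the brightest was used. Genes lower or higher on all 6 arrays, IDUA, ARSK, ST3GAL2, KRT18, LEP, CSN3, LALBA, LRPPRC, CYB5R3 and POLR1D were named after their values were seen.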

Additional observations from a re-analysis of the deposited data

How the results depend on the processing

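For LAPTM4A, 19 of 20 alternatives moved the ratio by less than the pair SD, and for GNPTAB 15 of 20; the exceptions were background subtraction (-2.18 for LAPTM4A and -0.91 for GNPTAB) and, for GNPTAB, Low in Cy5 only (-0.47), Low in Cy3 only (-0.76), the second quantification day only (-0.50) and the 4 arrays with LAPTM4A above background in Low (-0.51), the last 2 chosen after seeing the data. Leaving out a pair gave -1.68 to -1.46 for LAPTM4A and -0.65 to -0.56 for GNPTAB. The count of probes that limma called, 7, was less stable: 4 with no background correction, 3 with subtraction, 2 with an offset of 16, 2 with either duplicate spot alone, 963 with Low in Cy5 only, 442 with Low in Cy3 only, 2 without the filter, 14 with a trended robust prior, 0 with no moderation, 28 with the day and the pair as blocks, and 2 to 32 without 1 pair (5, 2 and 32 without pairs 1, 2 and 3). The labels' pair number as a replicate block over single arrays with a dye term gave 32 calls (consensus correlation 0.02). Of the list genes tested in each setting, limma called 20 with Low in Cy5 only, 6 with Low in Cy3 only and 1 with the replicate block (ST3GAL2, higher in Low, but above background on 4 of 6 arrays in Low and 0 of 6 in High), and 0 otherwise. With 1 dye order, the dye effect stays in the ratio, and in part it also does with the 4 arrays and with 1 quantification day. Signal close to background limits LAPTM4A in Low, and 3 pairs limit every SD.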

Other observations

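Dixon's statistic, the gap of an array to the nearest of the other 5 divided by the range of all 6, was read over 61 sets of 6 array ratios. The sets were LAPTM4A, GNPTAB and the other named genes with a value on all arrays. In 0 of them did an array exceed the 95% critical value for 6 values.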
